A study of Mus musculus with 7 samples.

Results

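The endothelial genes described here were 10 genes that mark the cells lining blood vessels: *Pecam1*, *Cdh5*, *Kdr*, *Flt1*, *Tek*, *Tie1*, *Emcn*, *Egfl7*, *Esam* and *Cldn5*. They were taken by symbol, and 10 of 10 were found among the 31531 genes of the normalized count table. The series profiled muscle fibers at embryonic day 17.5, with 4 WT libraries and 3 libraries of homozygous *dyW* mutants, and every fetus came from crosses of heterozygous *dyW* C57BL/6 mice. The *dyW* allele disrupts *Lama2*, the gene for the laminin-α2 chain of the muscle basement membrane, and the mutant is a model of LAMA2-CMD, a congenital muscular dystrophy. Fibers were freed from the epaxial muscles of the back with dispase and collagenase and kept on a strainer, and the study's methods describe no step that removes vessels, so a library holds RNA of whatever cells stayed with the fibers.

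Endothelial cells form the inner wall of every blood vessel, and the capillaries of skeletal muscle run along the fibers. Their growth and survival depend on VEGF, which binds the receptors encoded by *Kdr* and *Flt1*, and on angiopoietins, which bind the Tie2 receptor encoded by *Tek*. Junctional proteins, among them those encoded by *Cdh5*, *Pecam1*, *Esam* and *Cldn5*, hold neighbouring endothelial cells together and set how much the vessel wall lets through.

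The libraries differed in depth and in cell content before any endothelial gene is considered. A normalized count is the number of reads on a gene divided by a factor for the library, and 1 read was worth between 2.05 and 5.33 normalized counts in WT but between 0.0974 and 0.488 in *dyW*. Between 470804 and 2220813 reads were counted on genes in WT libraries, against 3663905 to 18297106 in *dyW* libraries. Those reads fell on 25530 to 29594 genes in WT but on only 14209 to 19360 in the deeper *dyW* libraries, so low WT reads were widespread across genes. *Lama2* stood at 90.6 to 111 normalized counts in WT, and at 4.29 in dyW1 and 6.07 in dyW2. In the third mutant library *Lama2* stood at 140, above every WT library and unlike the other mutant libraries. That library is therefore written as the library labelled dyW3, and what the value says of its genotype was not tested. The summed level of 14 myofiber genes was 71.5 normalized counts in dyW1 and 2799 in WT1, against 6746 to 80058 in the other 5 libraries, and *Ckm*, *Myh3*, *Myh8*, *Tnnc2*, *Actn2* and *Atp2a1* had no read in dyW1. Red cell genes summed to 14.8 in dyW1 and 107 in WT1, but to between 28863 and 291308 elsewhere. No member was at 0 in any of the 7 libraries. In WT, however, many members lay near the level of genes that muscle is not known to express, the odorant and vomeronasal receptor genes. In the library labelled dyW3 all members but *Esam* lay under the 95th percentile of those genes. Reads of such members in WT and in that library do not by themselves show endothelial RNA. In bulk RNA, fewer endothelial cells and less RNA per endothelial cell cannot be told apart.

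**Figure D1:**
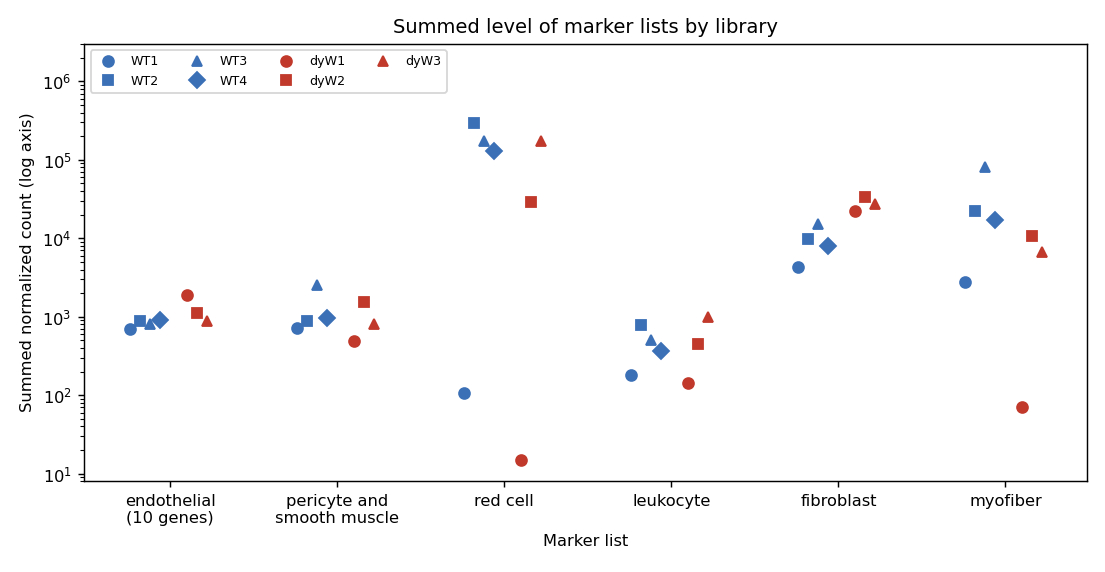
Summed normalized count (log axis) of 6 marker lists in each library, WT in blue and *dyW* in red, with the marker shape giving the replicate number. The endothelial sum spans 704 to 1903, while the red cell and myofiber sums fall far below the other libraries in dyW1 and, for red cell genes, in WT1.

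Promoter sequences of 7 of the 10 members were found in RefSeq (GRCm38.p6), and *Pecam1*, *Cdh5* and *Esam* were not among them. Factors of the ETS family, among them Erg and Fli1, regulate many endothelial genes and bind sites built on the core GGAA. The stretch from 250 to 51 bases before the annotated start is shown for *Emcn*, the member whose groups did not overlap, for *Kdr*, whose values varied least among WT libraries, and for *Cldn5*, whose values varied most. Capitals mark GGAA and its reverse complement TTCC.
Emcn (chr3:137340828-137341027, plus strand): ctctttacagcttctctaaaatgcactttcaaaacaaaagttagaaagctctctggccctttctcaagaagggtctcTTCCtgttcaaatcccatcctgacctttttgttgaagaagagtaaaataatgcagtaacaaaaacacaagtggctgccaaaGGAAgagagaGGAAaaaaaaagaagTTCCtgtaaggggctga
Kdr (chr5:75978506-75978705, minus strand): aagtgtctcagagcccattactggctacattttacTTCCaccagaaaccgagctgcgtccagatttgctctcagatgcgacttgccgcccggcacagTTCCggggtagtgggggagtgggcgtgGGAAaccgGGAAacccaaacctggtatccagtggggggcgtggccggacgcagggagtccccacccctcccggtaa
Cldn5 (chr16:18776597-18776796, plus strand): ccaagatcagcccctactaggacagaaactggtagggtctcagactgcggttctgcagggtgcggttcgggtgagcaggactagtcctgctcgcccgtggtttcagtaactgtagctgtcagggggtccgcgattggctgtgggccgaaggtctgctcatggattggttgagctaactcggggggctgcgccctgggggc
The *Emcn* and *Kdr* windows held 4 copies each on both strands together, and the *Cldn5* window held 0. At least 1 copy occurred in 89.2% of the same windows of all 32851 promoters, with a median of 2, and 20.4% held 4 or more. A copy of these letters is not a site, and its absence from this window says nothing of the factor.

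To determine whether endothelial genes differed between *dyW* and WT fibers, limma was run on log2(normalized count + 1) of the 25791 genes whose normalized counts averaged 5 or more, and all 10 members were among them. No member passed the thresholds, an adjusted *P* under 0.01 and an absolute log2 fold change over 1.5, in either direction, whereas 18.7% of all genes tested were lower in *dyW* and 0.0659% were higher. The share of all genes was not stable, since 0 were lower at the same total or without WT2, WT4 or dyW2 alone. At an adjusted *P* under 0.05 the count of members was again 0 in both directions, against 29.6% of all genes lower and 1.0% higher. Among the 6005 genes with a mean from 50 to under 1000, a range that holds all members but *Cldn5*, 2.43% were lower and 0.283% higher at the first threshold, and 5.0% lower and 4.01% higher at the second. At an unadjusted *P* under 0.05, 2 members, *Tek* and *Emcn*, were higher in *dyW* and 0 were lower, beside 2.81% and 41.5% of all genes. With voom on the recovered reads 0 members passed at an adjusted *P* under 0.05 as well. Over all genes voom gave 5982 lower and 5 higher at an adjusted *P* under 0.01, where 0 members passed too. Every *dyW* library lay above every WT library in 1 of the 10 members, *Emcn*, against 3.28% of all genes tested and 12.4% of those 6005 genes. Conversely, 0 members had all *dyW* libraries below all WT libraries, which 31.5% of all genes did, but only 6.74% of those 6005 genes.

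The median log2 fold change of the members was 0.33, beside -1.99 over all genes tested and 0.21 over the genes with a mean from 50 to under 1000. The members' median was 1.47 at the same total, 0.15 after quantile normalization, 0.85 without the library labelled dyW3, 0.09 without dyW1 and -0.17 without WT1 and dyW1, so its sign was not fixed. Set against the median of all genes, the members lay between 1.31 above it for *Tie1* and 4.18 above it for *Tek*. Against the 0.21 of genes with a mean from 50 to under 1000, *Pecam1*, *Flt1*, *Tie1* and *Egfl7* lay below and *Cdh5*, *Kdr*, *Tek*, *Emcn* and *Esam* above. *Cldn5*, outside that range, lay below 0.21 too. After quantile normalization the same differences ran from -1.24 for *Pecam1* to 2.49 for *Tek*, with *Pecam1*, *Flt1*, *Tie1* and *Egfl7* below the median of all genes. The median of all genes itself depended on the scaling, being -1.24 with every library brought to an equal total and -0.15 with quantile normalization, which gives every library the same distribution of values.

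**Figure D2:**
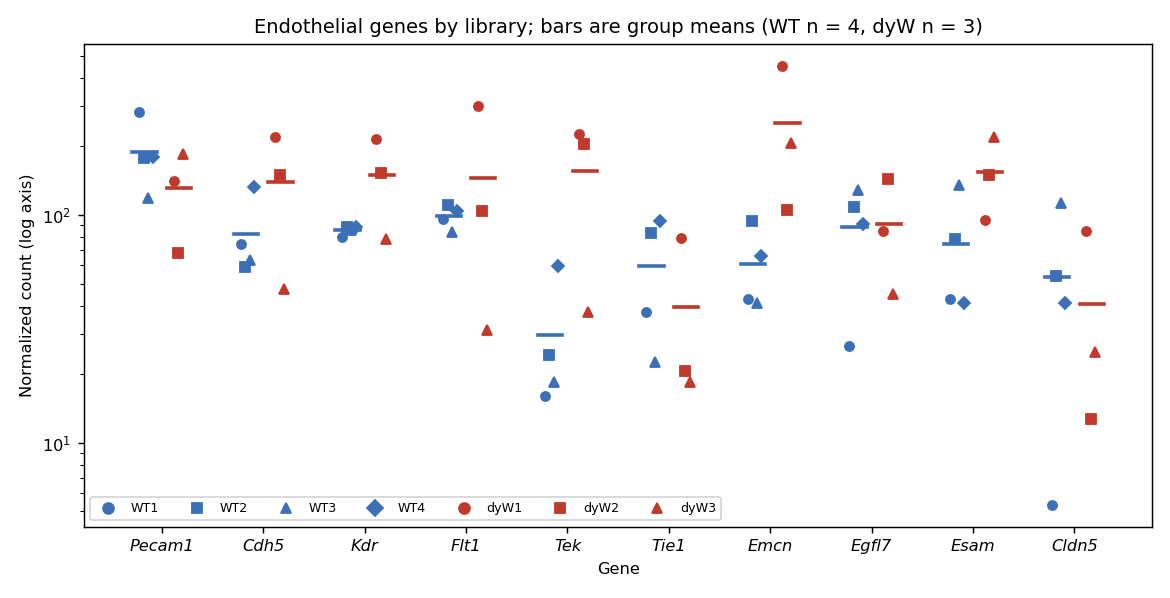
Normalized count (log axis) of each endothelial gene in the 4 WT libraries (blue) and the 3 *dyW* libraries (red), with horizontal bars at the group means. In *Emcn* alone the red and blue points do not overlap, and dyW1 holds the highest red point in 7 of the 10 genes.

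*Kdr* and *Flt1* encode the receptors of VEGF-A: the first carries most of its growth signal, and the second binds it tightly and limits how much reaches the first. *Kdr* (GRCm39 chromosome 5, 76093487 to 76139884, minus strand) stood at 80.0, 89.0, 86.2 and 88.1 normalized counts in WT1 to WT4, and at 216 in dyW1, 154 in dyW2 and 78.1 in the library labelled dyW3. The WT libraries thus spanned only 1.11-fold, while the last mutant library fell below all of them and the other two lay above. The means were 85.8 ± 4.07 (SD, n = 4) and 149 ± 69.0 (SD, n = 3), with a log2 fold change of 0.67 (SE 0.562, adjusted *P* = 0.386).

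*Flt1* (chromosome 5, 147498414 to 147662826, minus strand) spanned 1.31-fold in WT, with 96.0, 110.6, 84.1 and 103.8 normalized counts. In *dyW* it ranged 9.65-fold, from 302 in dyW1 through 103.7 in dyW2 to 31.3 in the library labelled dyW3, so the mutant libraries lay above, among and below the WT values. The log2 fold change was 0.02 (SE 0.772, adjusted *P* = 0.985), with a 95% interval from -1.73 to 1.78. That interval still holds changes of either direction.

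*Tek* and *Tie1* encode the 2 Tie receptors, of which Tie2 binds angiopoietins and Tie1 has no well-established ligand of its own and modulates Tie2. *Tek* (chromosome 4, 94627291 to 94763224, plus strand) had 16, 24.3, 18.5 and 59.8 normalized counts in WT, which rested on 3, 9, 9 and 19 reads. In *dyW* it had 227 in dyW1, 205 in dyW2 and 37.6 in the library labelled dyW3, and the last of these lay under WT4, the only overlap between the groups. WT averaged 29.6 ± 20.4 (SD, n = 4) and *dyW* 157 ± 104 (SD, n = 3), a ratio of 5.28. This was the highest log2 fold change among the members, 2.19 with a 95% interval from 0.29 to 4.09, yet it did not pass the test (adjusted *P* = 0.0748, exact two-sided permutation *P* = 0.114). Without the library labelled dyW3 the adjusted *P* was 0.010, but it was 0.179 without dyW1 and 0.181 without dyW2. With 1 WT library left out it was 0.0813 to 0.162.

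*Tie1* (chromosome 4, 118328385 to 118347261, minus strand) had 37.3, 83.6, 22.6 and 94.4 normalized counts in WT, against 78.8 in dyW1, 20.7 in dyW2 and 18.6 in the library labelled dyW3. The mutant libraries dyW2 and that labelled dyW3 lay below every WT library, and dyW1 lay among them. The log2 fold change was -0.68 (SE 0.810, adjusted *P* = 0.547), and 0.44 when all libraries were scaled to the same total.

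*Emcn* encodes endomucin, a sialomucin on the surface of capillary and venous endothelium. *Emcn* (chromosome 3, 137046794 to 137138999, plus strand) had 42.6, 94.4, 41.0 and 66.1 normalized counts in WT1 to WT4, and 451 in dyW1, 105 in dyW2 and 206 in the library labelled dyW3. The groups did not overlap, but the lowest *dyW* value was only 1.12 times the highest WT value. WT averaged 61.0 ± 25 (SD, n = 4) and *dyW* 254 ± 178 (SD, n = 3), a ratio of 4.17. The log2 fold change of 1.88 (95% interval 0.36 to 3.40) did not pass the test either (adjusted *P* = 0.0625), and the exact two-sided permutation test gave *P* = 0.057, the smallest that 4 libraries against 3 allow. Without dyW2 the adjusted *P* was 0.0344, but it was 0.163 without dyW1 and 0.0806 without the library labelled dyW3. With 1 WT library left out it was 0.0863 to 0.124.

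*Egfl7* encodes a protein that endothelial cells secrete into the vessel matrix. It had 26.7, 107.9, 129 and 91.3 normalized counts in WT, and 85.0 in dyW1, 144 in dyW2 and 44.9 in the library labelled dyW3. The values of the groups were intermixed, and the log2 fold change was 0.10 (SE 0.745, adjusted *P* = 0.931). *Egfl7* (chromosome 2, 26468286 to 26486789, plus strand) holds the microRNA gene *Mir126a* and shares 1088 exon bases with *Agpat2* on the opposite strand. Since the strand setting of the counting is not given in the sources used here, reads of *Egfl7* and *Agpat2* in that stretch cannot be told apart.

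*Pecam1* encodes CD31, an adhesion molecule of endothelial junctions that platelets and many leukocytes also carry. *Pecam1* (chromosome 11, 106543689 to 106641454, minus strand) had 283, 178, 119 and 179 normalized counts in WT, and 142 in dyW1, 67.9 in dyW2 and 186 in the library labelled dyW3. Of the mutant libraries, dyW2 alone lay below all of WT. The means of 190 ± 68.0 (SD, n = 4) and 132 ± 59.7 (SD, n = 3) gave a log2 fold change of -0.57 (SE 0.586, adjusted *P* = 0.482). The direction turned with the scaling: with all libraries at the same total it was 0.57, and after quantile normalization it was -1.39, with every *dyW* library below every WT library. The share of all genes that do so after quantile normalization was not counted.

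*Cdh5* encodes VE-cadherin, the main adhesion molecule of endothelial adherens junctions and the member most particular to this cell type. *Cdh5* (chromosome 8, 104828231 to 104871143, plus strand) had 74.6, 59.3, 63.6 and 132 normalized counts in WT, and 221 in dyW1, 150 in dyW2 and 47.4 in the library labelled dyW3. As in *Kdr*, dyW1 and dyW2 exceeded every WT library and the last lay below them all. The log2 fold change was 0.57 (SE 0.690, adjusted *P* = 0.555).

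*Esam* and *Cldn5* encode proteins of endothelial tight junctions. *Esam* (chromosome 9, 37439344 to 37449615, plus strand) had 42.6, 78.2, 135 and 40.9 normalized counts in WT, and 95.3 in dyW1, 150 in dyW2 and 220 in the library labelled dyW3. Only WT3 reached into the *dyW* range, and the log2 fold change was 1.15 (SE 0.653, adjusted *P* = 0.210). *Cldn5* (chromosome 16, 18595597 to 18597012, plus strand) spread 21.2-fold within WT alone, from 5.33 normalized counts in WT1 through 53.9 in WT2 and 40.9 in WT4 to 113 in WT3. The WT1 value was 1 read, for which the exact 95% Poisson interval is 0.0253 to 5.57 reads. In *dyW* it had 85.0 in dyW1, 12.6 in dyW2 and 24.9 in the library labelled dyW3, and the log2 fold change was -0.20 (SE 1.09, adjusted *P* = 0.902).

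**Figure D3:**
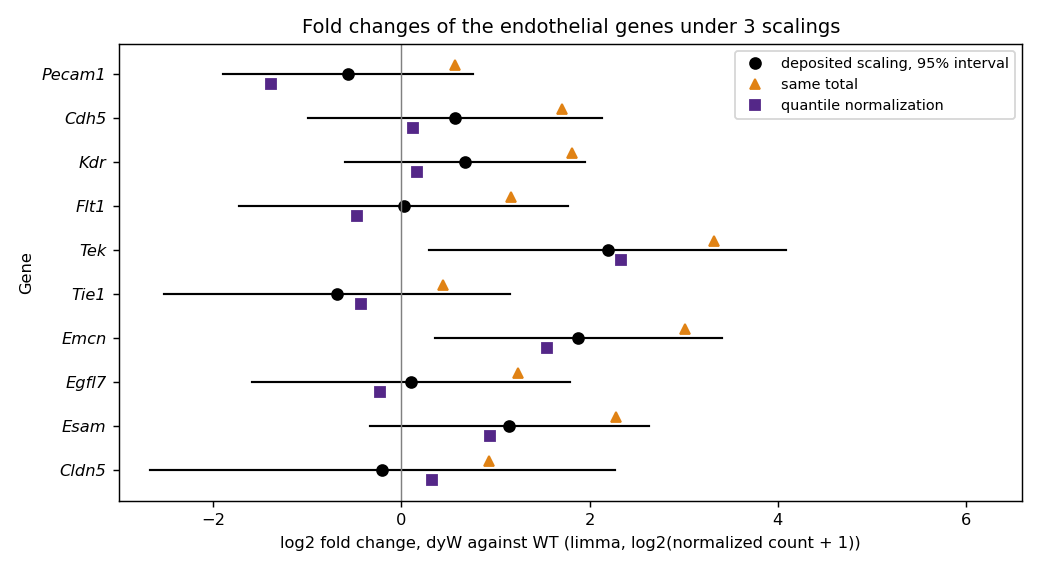
Log2 fold change of *dyW* against WT for each endothelial gene (limma, log2(normalized count + 1)), with circles and bars for the deposited scaling and its 95% interval, triangles for libraries at the same total and squares for quantile normalization. The bars of *Tek* and *Emcn* alone exclude 0, and the 3 symbols of *Pecam1*, *Flt1*, *Tie1*, *Egfl7* and *Cldn5* lie on both sides of 0.

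The number of members past the second threshold depended on the scaling. When all libraries were scaled to the same total, *Tek* (log2 fold change 3.32, adjusted *P* = 0.0208), *Emcn* (3.02, adjusted *P* = 0.0221) and *Esam* (2.28, adjusted *P* = 0.0382) passed an adjusted *P* of 0.05, 3 of 10 members beside 4.85% of all genes tested. On that scale the groups did not overlap in these 3 genes and in *Kdr*, 4 of 10 members beside 9.08% of all genes, while 0 members had every *dyW* library below WT, beside 23.2%. After quantile normalization 0 members passed with limma, the log2 fold changes of *Tek*, *Emcn* and *Esam* being 2.33, 1.55 and 0.95. On that scale only 3 of all genes were lower and 0 higher at an adjusted *P* under 0.01.

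Summed over the 10 members, the normalized counts were 704, 879, 812 and 897 in WT1 to WT4 and 1903, 1113 and 895 in *dyW*, with the library labelled dyW3 last and under the highest WT sum. The ratio of the group means was 1.58, and leaving out each library in turn moved it between 1.22, without dyW1, and 1.83, without the library labelled dyW3. Set against all reads on genes, in RPM, the members held 280, 221, 178 and 162 in WT and 1360, 481 and 500 in *dyW*. On that scale every *dyW* library lay above every WT library. The share taken by abundant genes differed between the groups in the same samples: the 10 most abundant genes held 43.3% to 77.3% of the reads in WT and 16.4% to 37.6% in *dyW*.

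The members moved largely together in dyW1 and WT1 and were more divided in the other libraries. Centred on each gene's own mean of log2 values, dyW1 lay above the mean in 9 of the 10 members and WT1 in only 1, *Pecam1*. *Kdr* was closest to the mean profile of the members, with a root mean square difference of 0.27 on the log2 scale over the 7 libraries, and *Cldn5* (1.14) and *Tek* (1.06) were farthest. Ratios of 2 members within a library do not depend on its scaling factor. *Tek* over *Tie1*, a pair chosen after its values were seen, was 0.429, 0.290, 0.818 and 0.633 in WT and 2.89, 9.86 and 2.03 in *dyW*. *Emcn* over *Pecam1*, chosen likewise, was 0.151, 0.530, 0.345 and 0.368 in WT and 3.19, 1.55 and 1.11 in *dyW*. In both pairs every WT library had the second gene ahead and every *dyW* library the first. *Kdr* over *Flt1* gave no such separation, with 0.805 to 1.02 in WT and 0.716, 1.48 and 2.50 in *dyW*. The groups also overlapped in *Cldn5* over *Cdh5* and *Esam* over *Cdh5*. Since the pairs were picked with their values known, how many of them separated the groups carries no weight, and the WT values of *Tek* rested on 3 to 19 reads per library.

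**Figure D4:**
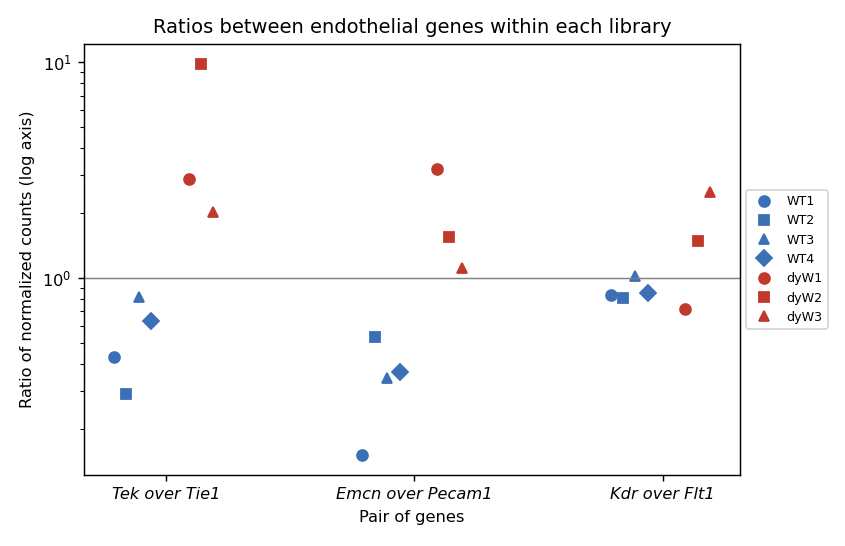
Ratio of normalized counts (log axis) of 3 pairs of endothelial genes within each library, WT in blue and *dyW* in red. *Tek* over *Tie1* and *Emcn* over *Pecam1* lie under 1 in the 4 WT libraries and above 1 in the 3 *dyW* libraries, while *Kdr* over *Flt1* overlaps.

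Levels of different genes compare only per length, so reads were also divided by exon length and library total (RPKM). Exon length was that of all annotated exons of a gene merged, 8003 bases for *Egfl7* and 1416 for the single exon of *Cldn5*. It can exceed the length of a transcript, which lowers the value of such a gene here and in the comparison with receptor genes. In WT the order of mean RPKM was *Cldn5* (8.44), *Esam* (6.05), *Pecam1* (5.39), *Cdh5* (4.70), *Tie1* (2.89), *Egfl7* (2.58), *Kdr* (2.42), *Emcn* (2.34), *Flt1* (1.89) and *Tek* (1.14). No pair of neighbours in this order differed by more than the SD of the difference over the 4 libraries. In *dyW* the order was *Esam* (28.0), *Emcn* (24.4), *Cdh5* (19.0), *Cldn5* (18.9), *Tek* (15.1), *Kdr* (9.58), *Pecam1* (7.82), *Flt1* (6.78), *Egfl7* (6.17) and *Tie1* (5.04), again with no neighbours apart by more than that SD over the 3 libraries. *Tek* was thus the last in WT and the fifth in *dyW*, and *Tie1* the fifth in WT and the last in *dyW*.

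The WT values were read against 1388 odorant and vomeronasal receptor genes, which muscle is not known to express. The median receptor gene held 0.631, 2.51, 1.77 and 1.87 reads per kilobase in WT1 to WT4, 0 in dyW1 and dyW2, and 1.84 in the library labelled dyW3. *Tek* was at 0.79, 0.60, 0.85 and 1.69 times that median in WT, so 3 of its 4 WT values lay under the median receptor gene. *Flt1* lay at 1.2 to 2.09 times the median, *Emcn* at 1.70 to 2.11 and *Kdr* at 1.43 to 2.59, whereas *Pecam1* reached 2.63 to 8.40 and *Cdh5* 2.0 to 5.13. The number of members above the 95th percentile of the receptor genes was 1, 4, 5 and 4 in WT, 10 in both dyW1 and dyW2, and 1 in the library labelled dyW3. That percentile stood at 4.33 to 6.08 reads per kilobase in WT and at 83.8 in the library labelled dyW3. In the latter *Flt1*, *Tie1* and *Tek* lay at percentiles 56.5, 61.7 and 67.7 of the receptor genes, and *Lama2* at 70.7. *Emcn* and *Esam* lay at 92.1 and 97.7 there. With the receptor level subtracted from each gene, an alternative added after seeing the data, *Tek* and *Emcn* had log2 fold changes of 5.69 (adjusted *P* = 0.104) and 2.97 (adjusted *P* = 0.159). What these receptor reads are, and their part in the values of WT and of the library labelled dyW3, was not tested.

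**Figure D5:**
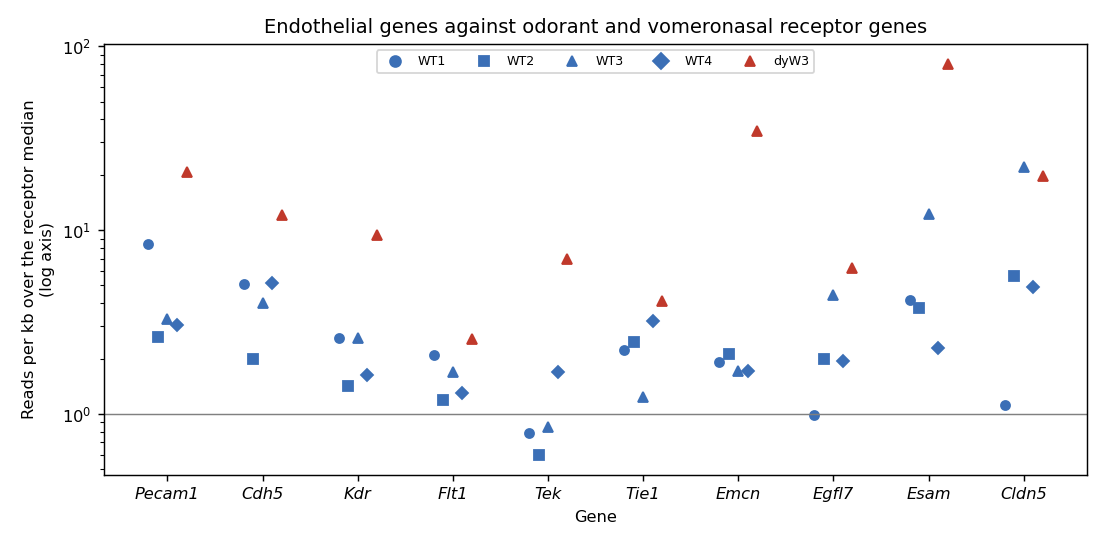
Reads per kilobase of each endothelial gene divided by the median of 1388 odorant and vomeronasal receptor genes (log axis), in the 4 WT libraries (blue) and the library labelled dyW3 (red); in dyW1 and dyW2 the median was 0 and no ratio exists. WT points of *Tek* lie below the line at 1 in 3 of 4 libraries, and those of *Pecam1* and *Cdh5* at 2.0 or above. The receptor genes spread further above their median in the library labelled dyW3 than in WT, and only 1 member there passed their 95th percentile.

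Other genes of the vascular pathways were then counted from lists, to be read against the shares of all genes tested, 18.7% lower and 0.0659% higher at an adjusted *P* under 0.01 and 29.6% and 1.0% under 0.05. With all libraries at the same total those shares at 0.05 were 20.7% lower and 4.85% higher. Of 8 ligands of the VEGF and angiopoietin receptors, 1 was lower in *dyW* and 0 higher under both thresholds. This was *Angpt4*, an angiopoietin, with 37 reads over the WT libraries and no read in any *dyW* library. Its adjusted *P* was 0.00688, but 0.0225 at the same total and 0.295 after quantile normalization. Without dyW1, 2 ligands were lower at an adjusted *P* under 0.05. Without WT1 and dyW1, 2 were lower at that level but 0 at an adjusted *P* under 0.01. *Angpt1*, the main activating ligand of Tie2, had 0, 35.1, 8.21 and 15.7 normalized counts in WT and 136, 30.1 and 138 in *dyW*, and did not pass (log2 fold change 3.28, adjusted *P* = 0.0725), but was higher at the same total (4.47, adjusted *P* = 0.0287). *Vegfb* had every *dyW* library below every WT library, 8.38 to 14.2 against 18.5 to 40.5 normalized counts, and did not pass (adjusted *P* = 0.143). *Vegfa*, the chief VEGF, was at 18.9 to 37.3 in WT and at 262 in dyW1, 18.7 in dyW2 and 42.0 in the library labelled dyW3 (adjusted *P* = 0.366). The median log2 fold change of the 8 ligands was -0.76, beside -1.99 over all genes. Its direction turned with the processing, to 0.75 after quantile normalization, 0.36 with reads drawn to the lowest total and 0.64 with the receptor level subtracted. With a filter at a mean of 50, which only *Vegfa* and *Angpt1* pass, it was 2.21.

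Of 12 further receptors and co-receptors, 0 passed either threshold with limma or voom and 1 was higher at an unadjusted *P* under 0.05, beside 2.81% of all genes. Without the library labelled dyW3, *S1pr1*, a sphingosine 1-phosphate receptor, was higher at an adjusted *P* under 0.05 (0.0217). The median log2 fold change of 0.52 was 0.28 without the library labelled dyW3, 0.30 without WT1, 0.24 without WT1 and dyW1, 1.21 without dyW2 and 1.64 at the same total. At the same total 2 were higher at an adjusted *P* under 0.05, *Calcrl* (0.0172) and *Nrp1* (0.0262), beside 4.85% of all genes on that scale. *Calcrl*, the adrenomedullin receptor, was the one whose groups did not overlap, beside 3.28% of all genes, with 5.33, 32.4, 18.5 and 34.6 normalized counts in WT and 50.9, 80.3 and 121 in *dyW* (log2 fold change 2.03, adjusted *P* = 0.0796). Of 18 endothelial transcription factors 16 were tested and 0 passed with limma or voom, or at an unadjusted *P* under 0.05, with a median of 0.30 that was 1.38 at the same total, 1.08 after quantile normalization and -0.18 without WT1 and dyW1. Without WT1 and dyW1, 2 of 15 were lower at an adjusted *P* under 0.05, without dyW1 1 was lower, and without the library labelled dyW3 1 was higher. At an adjusted *P* under 0.01 the list held 0 calls in these fits, where 0, 2090 and 6698 of all genes were lower. *Mef2c*, a muscle factor as well and the one with the highest normalized count, not set against length, had 69.3 to 222 in WT and 926, 208 and 135 in *dyW* (adjusted *P* = 0.283).

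Among 16 genes of arterial and venous identity, 2 were lower in *dyW* under both thresholds, beside 18.7% and 29.6% of all genes, and 0 were higher. Their median log2 fold change of -0.95 turned to 1.61 with the receptor level subtracted and to 0.58 after quantile normalization. At an adjusted *P* under 0.01 the lower count was 1 without dyW1, 3 without the library labelled dyW3, and 0 without WT1 and dyW1, at the same total or after quantile normalization. Over all genes the lower counts in these settings were 2090, 6698, 0, 0 and 3. *Jag2*, a Notch ligand, had 24.6 to 103.8 normalized counts in WT and no read in *dyW* (adjusted *P* = 0.00372; 0.0134 at the same total and 0.0494 after quantile normalization). *Hey2*, a Notch target, had 5.33 to 34.6 in WT and 0.0974 normalized counts, or 1 read, over all of *dyW* (adjusted *P* = 0.00540; 0.0134 and 0.520). In the same list *Hey1*, *Hes1* and *Efnb2* had every *dyW* library above every WT library without passing the test, with adjusted *P* values of 0.0787, 0.0620 and 0.0803, beside 3.28% of all genes and 12.4% of those with a mean from 50 to under 1000. Conversely 3 genes, *Jag2*, *Hey2* and *Cxcr4* (adjusted *P* = 0.0508), had every *dyW* library below WT, beside 31.5% of all genes. At the same total 3 genes of the list were higher and 2 lower at an adjusted *P* under 0.05, beside 4.85% and 20.7% of all genes.

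Of 32 other endothelial genes tested, 2 were lower at an adjusted *P* under 0.05 and 0 were higher, where 29.6% of all genes were lower. Neither passed after quantile normalization, and *Ocln* alone did at the same total. The count was 1 lower without dyW1 or without WT1 and dyW1, and 3 lower and 1 higher without the library labelled dyW3. *Ocln*, a tight junction gene that epithelia also express, was at 16.4 to 53.9 normalized counts in WT and at 0 to 3.67 in *dyW* (log2 fold change -4.33, adjusted *P* = 0.00513). *Vwf*, which encodes the von Willebrand factor of endothelium and platelets, was at 30.8 to 119.6 in WT and at 5.07, 0.759 and 28.3 in *dyW* (log2 fold change -3.52, adjusted *P* = 0.0283). Both had every *dyW* library below every WT library, whereas 6 genes of this list, *Clec14a*, *Mcam*, *Tm4sf1*, *Adgrl4*, *Myct1* and *Jam2*, had every *dyW* library above every WT library, beside 3.28% of all genes and 12.4% of those with a mean from 50 to under 1000, though 0 of them passed with limma, where 4 genes of the list were higher at an unadjusted *P* under 0.05, and 0 were higher with voom. *Mcam*, shared with the pericyte list, was the most even of them, with 40.5 to 81.8 in WT and 136 to 140 in *dyW* (adjusted *P* = 0.0979). At the same total, 7 genes of the list were higher and 1 lower at an adjusted *P* under 0.05, again beside 4.85% and 20.7%. Lymphatic endothelial genes gave 0 calls among 5 tested with limma or voom and 1 lower at an unadjusted *P* under 0.05, with 41.5% of all genes lower at that level. Their median was -1.04, beside -1.99 over all genes, and turned to 0.23 after quantile normalization, 0.19 with drawn reads and 1.85 with the receptor level subtracted.

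Markers of other cells that the fibers could carry were counted beside them. Fibroblast genes summed to 4313 to 15102 normalized counts in WT and 22284 to 33733 in *dyW*. *Pdgfra* and *Col1a2* were higher in *dyW* at an adjusted *P* under 0.05 (0.0286 and 0.0157), 2 of 12, beside 1.0% of all genes. That count was 0 of 12 without dyW1 or after quantile normalization. *Osr1*, *Thy1* and *Twist2* of the same list had log2 fold changes of -2.56, -2.23 and -1.78 without passing, and its other genes were above 0. In *Osr1* every *dyW* library lay below every WT library, and without the library labelled dyW3 it was lower (adjusted *P* = 0.0301). Pericyte and smooth muscle genes summed to 720 to 2550 in WT and 492 to 1549 in *dyW*. At an adjusted *P* under 0.05, 2 of 11, *Cnn1* and *Myh11*, were lower, beside 29.6% of all genes. Neither passed at the same total (adjusted *P* = 0.0986 and 0.171) or after quantile normalization (0.561 and 0.214). Leukocyte genes summed to 181 to 785 in WT and 145 to 1005 in *dyW*, with *Cx3cr1* lower and the other 11 of 12 not past the test. Without the library labelled dyW3, 4 were lower under both thresholds, *Cx3cr1*, *Ptprc*, *Adgre1* and *Fcgr1*. In that fit 6698 of 25971 genes were lower at an adjusted *P* under 0.01. Platelet genes, which bear on *Pecam1* and *Vwf*, summed to 129 to 210 in WT and 107 to 623 in *dyW*, with *Treml1* lower among 6. At an adjusted *P* under 0.05 the platelet count was 2 lower without dyW1 and 2 without the library labelled dyW3. Red cell genes gave 2 lower of 9 tested, *Slc4a1* and *Epb42*, and myofiber genes 1 lower of 14, *Ttn*, which encodes titin. After quantile normalization the leukocyte, platelet, red cell and myofiber lists held 0 calls at an adjusted *P* under 0.05. The myofiber count was 0 lower without dyW1 and at the same total, and 3 lower without the library labelled dyW3 or without WT1 and dyW1. At an adjusted *P* under 0.01 the last 2 of these fits gave 1 and 0 lower, where 6698 and 0 of all genes were lower. The pericyte and smooth muscle count was 0 without WT1 and dyW1. With the receptor level subtracted, the median log2 fold change of that list turned from -1.78 to 0.31. The leukocyte median turned from -1.50 to 0.93 and the platelet median from -2.32 to 0.13, while those of red cell and myofiber genes stayed below 0. The part of these cells in the values of the endothelial genes was not tested.

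The 5 genes outside all lists whose profile over the 7 libraries lay closest to the mean profile of the members were sought among 6023 genes with a mean of at least 50. They were *Sgpl1*, with a root mean square difference of 0.134 on the log2 scale, *Eea1* (0.139), *Usp15* (0.219), *Fam13b* (0.221) and *Creb1* (0.223). *Sgpl1*, the lyase that breaks down sphingosine 1-phosphate, had 32.0, 48.5, 51.3 and 59.8 normalized counts in WT and 116, 56.3 and 52.3 in *dyW*, the order of libraries being dyW1 highest and WT1 lowest.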

How the data were processed

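RNA of muscle fibers was sequenced after SMART-seq2 amplification, without molecular identifiers, so reads are not independent molecules and intervals cover counting error only. The authors used Cutadapt for trimming, RNA STAR for alignment to GRCm39 and FeatureCounts for assigning uniquely mapped reads to genes; versions, annotation release and strand setting are not given in the sources used here. The values they deposited are these counts divided by 1 size factor per library (normalized counts, with decimal commas); a deposited table of the authors' DESeq2 fold changes and P-values was not used. Whole reads were recovered from the step of each library's values, and 100% of values lay within 0.1 of a whole step.

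Genes averaging 5 or more normalized counts over the 7 libraries were fitted in limma 3.58.1 (R 4.3.3; lmFit, then eBayes with a trend) on log2(normalized count + 1), with Benjamini-Hochberg adjustment over all 25791 genes tested. The fold change on this scale understates that of low genes. For single genes an exact permutation test, two-sided, ran over the 35 ways to divide 7 libraries into 4 and 3. Coordinates and exon lengths came from GENCODE release M39, which held 99.2% of the gene identifiers, and promoters from RefSeq. Tables were made with pandas 2.3.3, numpy 2.4.6 and scipy 1.17.1 in Python 3.11.15 and plots with matplotlib 3.10.9, and the fit was tested on simulated data. P-values measure the spread between these libraries.

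The members and lists were chosen with earlier results of these data known. Named are the members, *Lama2*, listed genes past a threshold, some of the most and least abundant listed genes, and the 5 genes of closest profile; the other listed genes, among them *Angpt1* and the vascular genes whose groups do not overlap, and the ratio pairs were chosen after their values were seen. Tried as alternatives were quantile normalization, the same total, pseudocounts of 10 and 0.1, a filter at a mean of 50 or none, a replicate block, voom on recovered reads, reads drawn to the lowest total of 470804, and each library left out in turn. Leaving out WT1 with dyW1 and subtracting the receptor level were added after seeing the data.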

Additional observations from a re-analysis of the deposited data

How the results depend on the processing

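Among 179 refits of single members, 158 kept the direction and the side of the adjusted 0.01 threshold and 21 turned the direction. *Cdh5*, *Kdr*, *Tek*, *Emcn* and *Esam* had a positive log2 fold change under every alternative run, *Tek* between 1.52 and 5.69 and *Emcn* between 1.2 and 3.02, the lowest value of both being the one without WT1 and dyW1 (adjusted P 0.302 and 0.235). The cause of the turns below was not tested.

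With all libraries at the same total the log2 fold change was 0.57 for *Pecam1*, 0.44 for *Tie1* and 0.93 for *Cldn5*, and 3 members were higher at an adjusted P under 0.05. With reads drawn to the lowest total these genes were at 0.49, 1.11 and 0.85. Quantile normalization gave -0.47 for *Flt1*, -0.23 for *Egfl7* and 0.32 for *Cldn5*. With the receptor level subtracted *Tie1* was at 0.25 and *Cldn5* at 0.44, and without WT1 and dyW1 *Flt1* was at -0.78 and *Egfl7* at -0.42. Leaving out single libraries put *Flt1* between -0.77 (without dyW1) and 0.84, with -0.05 without WT3 and -0.0048 without dyW2. *Egfl7* lay between -0.40 (without WT1) and 0.53, with -0.30 without dyW2, and *Cldn5* between -1.04 and 0.40 (without dyW2), with 0.0031 without WT2 and 0.35 without WT3. The members higher at an adjusted P under 0.05 were then 0 to 1, *Emcn* without dyW2 and *Tek* without the library labelled dyW3, and the ratio of summed members 1.22 to 1.83. *Cldn5* has no value under the filter of a mean of at least 50.

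Over all genes, 4830 were lower and 17 higher with limma at an adjusted P under 0.01. The lower count was 0 with a pseudocount of 10, a mean of at least 50, the same total, drawn reads, the receptor level subtracted or without WT1 and dyW1, and 3 after quantile normalization. The higher count was 41 with a pseudocount of 0.1, 10 with no filter, 5 with voom, and 0 in those other settings and after quantile normalization. With 1 library left out, the lower count ranged from 0 (without WT2, WT4 or dyW2) to 6698 and the higher count from 0 to 25. The edgeR fit on recovered reads was not run.

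With the replicate number as a block, 1 gene was lower and 0 higher, *Tek* was at 2.59 (adjusted P 0.114) and *Emcn* at 1.94 (adjusted P 0.172). Deviations of same-numbered libraries correlated at 0.15, -0.05 and -0.09 over the 25791 genes, and the highest value of any pair was 0.23, of dyW2 with WT3. Such correlations are too few to settle whether any libraries were paired.

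Depth limits the WT values, where a member rested on 1 to 66 reads per library.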
